A study of Mus musculus with 20 samples.

Results

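Calmodulins and calmodulin-dependent kinases were followed through a macrophage RNA-seq experiment. The set holds 8 genes chosen by symbol from the 21963 gene entries of the count table: the calmodulin genes *Calm2* and *Calm3*, the activating kinase gene *Camkk2*, the CaMKI genes *Camk1* and *Camk1d*, the CaMKIV gene *Camk4*, and the CaMKII genes *Camk2d* and *Camk2g*. All 8 had a row, and 7 of them passed the filter on low counts, which *Camk4* did not. The rule itself uses no expression value.

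Calmodulin is a small protein that binds Ca2+ through its EF-hand loops and then wraps around target proteins. The CaM kinases are among those targets. CaMKK2 and CaMKK1 phosphorylate CaMKI and CaMKIV once Ca2+/calmodulin is bound, and CaMKK2 also phosphorylates the AMP-activated kinase AMPK. CaMKII is a multi-subunit enzyme that phosphorylates itself and can stay active after Ca2+ falls. In macrophages these kinases are known as links between receptor-driven Ca2+ signals and transcription factors of the CREB and MEF2 families.

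The experiment compared bone marrow-derived macrophages (BMDMs) in 5 groups, sequenced from total RNA of cell pellets. WT macrophages were untreated (n = 4), stimulated with zymosan for 3 h (n = 5), or loaded with BAPTA-AM and then stimulated with zymosan for 3 h (n = 4), and *Mcu*-/- macrophages were untreated (n = 4) or stimulated with zymosan for 3 h (n = 3). Zymosan is a yeast cell wall preparation that engages TLR2 and dectin-1, and BAPTA-AM is a cell-permeant form of a Ca2+ chelator. *Mcu* encodes the pore of the mitochondrial calcium uniporter, and the question put by the design was which zymosan-induced genes depend on Ca2+ and on its uptake by mitochondria. The study's results name floxed *Mcu* with Cx3cr1-cre, which acts in myeloid cells, as the source of the deletion. The share of cells that recombined is not given for these libraries. By the study's methods the mice were young, 15 to 25 weeks old, and the marrow was differentiated in L929-conditioned medium. Zymosan was given at 2 particles per cell, with BAPTA-AM at 10 µM added 30 min earlier. These doses are stated for the study's gene expression assays and not separately for the sequencing. The labels number biological replicates without saying whether each was a separate mouse, so p-values measure the spread between these libraries. There was no BAPTA-AM group without zymosan and none in *Mcu*-/- macrophages.

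Total counts on genes ran from 14420402 to 23954552 per library. *Mcu* lay between 6.10 and 9.54 CPM (reads scaled to a common library total, with TMM factors) in the 13 WT libraries and between 2.63 and 4.05 CPM in the 7 *Mcu*-/- libraries, without overlap. All 8 macrophage markers were expressed, led by *Lyz2*, while all 8 lymphocyte markers were under 1 CPM on average in every group. Untreated *Mcu*-/- replicate 4 stood apart: the median absolute log2 distance of a gene from its group mates was 0.333 in this library and 0.0652 to 0.139 in the other 19, and 3 replicate pairs that include it had a chi-square averaging 209 to 217 over genes, against 1.60 to 6.20 in the other 28 pairs. Its summed macrophage markers came to 8555 CPM against 14410 to 14780 CPM in untreated *Mcu*-/- replicates 1 to 3 and 10410 to 10770 CPM in *Mcu*-/- macrophages with zymosan. Most of the gap to replicates 1 to 3 lay in *Lyz2*. That gene averaged 6790 CPM in the untreated *Mcu*-/- group and 8113 CPM without replicate 4. Whether what sets this library apart also enters the *Mcu*-/- responses to zymosan was not tested. Results whose call or size changed without this library are given both ways.

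The sequences show how closely the calmodulin genes resemble each other. *Calm2* and *Calm3* had coding sequences of 450 bases in GENCODE M21 transcripts, and both encoded the same 149-residue protein, in which 4 EF-hand loops were found. *Calm3* matched *Calm2* at 82.7% of coding bases. The first loop (coding bases 61 to 96, residues 21 to 32) is shown because it encodes identical residues with different bases, and capitals mark bases that differ from *Calm2*.
Calm2: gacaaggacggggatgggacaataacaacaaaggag
Calm3: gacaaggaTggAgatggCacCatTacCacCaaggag
*Calm3* differed from *Calm2* at 7 of these bases. Reads of the 2 genes could therefore be told apart from each other, but 9.72% of the 50-base words of *Calm2* transcripts also occurred in transcripts of Gm14480, Gm15720 and Gm7308, and 2.52% of those of *Calm3* in Gm5881, so their counts may miss or share some reads. No such word was shared by the kinase genes with any other gene.

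**Figure D1:**
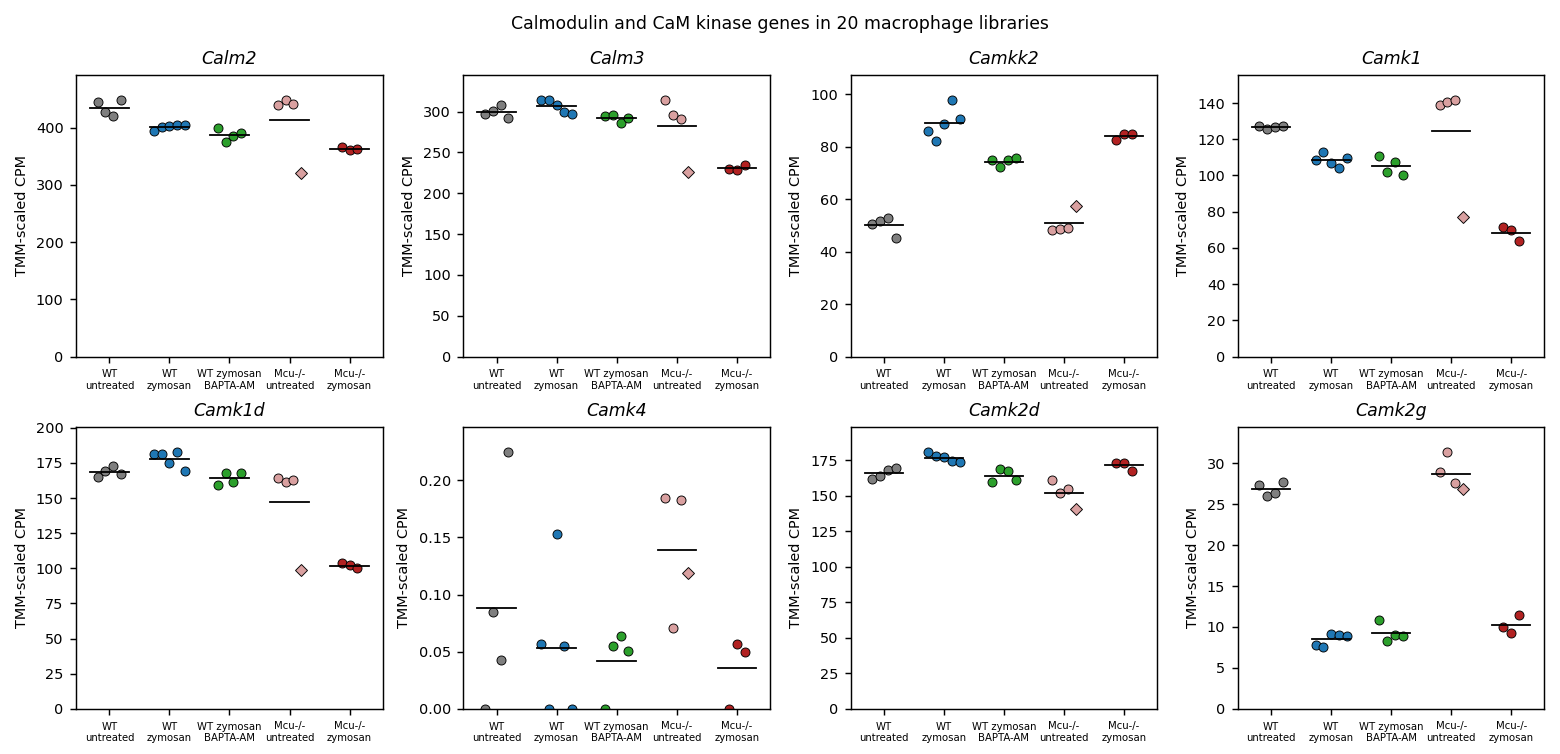
Each panel plots 1 gene, with TMM-scaled CPM on the y axis starting at 0 and the 5 groups on the x axis. Points are libraries, lines are group means and the diamond is untreated Mcu-/- replicate 4; Camkk2 lies at 45.4 to 57.4 CPM in untreated and 72.2 to 97.7 CPM in zymosan-stimulated libraries, and Camk2g falls from 26.0 to 31.3 CPM to 7.55 to 11.5 CPM.

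With zymosan in WT macrophages, *Camkk2* rose and *Camk2g* fell by far more than any other member, and the remaining kinases and calmodulins moved by small amounts. A gene was called where edgeR's Benjamini-Hochberg adjusted p over all 11707 genes tested was under 0.05. By that rule 6 of the 7 tested members were called, 3 higher and 3 lower, beside 78% of all genes (37% higher and 41.1% lower). The members' share was near that of all genes, and their median absolute log2 fold change of 0.11 was below the 0.47 of all genes tested. Scaling by library totals alone moved the median of all genes by -0.49 on the log2 scale and the share of calls that were higher from 47.4% to 19.3%, and changes below are relative to the TMM scale. Of the 3 higher members, *Camk1d* and *Camk2d* were lower under that scaling and *Camkk2* stayed higher.

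With BAPTA-AM, *Camkk2* was lowered most and the other members differed by less. Against WT macrophages with zymosan alone, 3 of the 7 tested members were called and all 3 were lower (*Camkk2*, *Camk1d* and *Camk2d*), beside 29.9% of all genes (14% higher and 15.9% lower). Library totals changed the share of calls that were higher from 47.0% to 70.0%, and only *Camkk2* of these 3 genes then stayed called. Against untreated WT macrophages, BAPTA-AM with zymosan gave 4 calls, *Camkk2* higher and *Calm2*, *Camk1* and *Camk2g* lower, beside 75.3% of all genes (36.4% higher and 39% lower).

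In *Mcu*-/- macrophages with zymosan, the CaMKI genes and *Calm3* stood well below their WT level. There were 5 calls among the 7 tested members, *Calm2*, *Calm3*, *Camk1* and *Camk1d* lower and *Camk2g* higher, beside 69.2% of all genes (36% higher and 33.2% lower). The median log2 fold change of the tested members was -0.14 and that of all genes tested was 0.02. Summed markers of several cell types moved with this comparison. The 8 macrophage markers summed to 10410 to 10770 CPM in *Mcu*-/- and 16080 to 16390 CPM in WT macrophages with zymosan. The highest of them, *Lyz2*, averaged 3241 CPM against 8181 CPM and made up most of that difference. The 6 stromal markers summed to 30.3 to 39.3 CPM against 6.26 to 8.92 CPM, with *Dcn* and *Lum* under 1 CPM. The highest in *Mcu*-/- was *Col1a1*, at a mean of 21.7 CPM. The 8 neutrophil markers summed to 0.547 to 0.765 CPM against 3.78 to 5.71 CPM. All 8 averaged under 1 CPM in *Mcu*-/- and 6 did in WT, where *S100a9* was highest at 2.56 CPM. Dendritic cell markers summed to 10.8 to 11.98 CPM against 9.25 to 10.1 CPM, carried by *Xcr1* with the other 5 under 1 CPM. Their part in the results was not tested, and in bulk RNA fewer cells of a type and less RNA per cell cannot be told apart.

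Without zymosan, no member was called between *Mcu*-/- and WT macrophages by edgeR, beside 0.0342% of all genes (0.00854% higher and 0.0256% lower). DESeq2's Wald test and the fit of all 20 libraries called none either, and 1 member, *Camk2d*, had an unadjusted p under 0.05, as did 557 of all genes. Without untreated *Mcu*-/- replicate 4, 1 member was called, *Camk1* higher, beside 3.67% of all genes (1.68% higher and 1.99% lower). Zymosan in *Mcu*-/- macrophages gave 5 calls, 2 higher and 3 lower, beside 60.4% of all genes (27.5% higher and 32.9% lower). Without replicate 4 it gave 7 calls, 2 higher and 5 lower, beside 82.1% (39.5% higher and 42.6% lower). The difference between the zymosan responses of the genotypes was called for 3 members, all lower, beside 30.7% of all genes (13% higher and 17.6% lower). Without replicate 4 it was called for 4 members, all lower, beside 60.2% (31% higher and 29.2% lower).

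**Figure D2:**
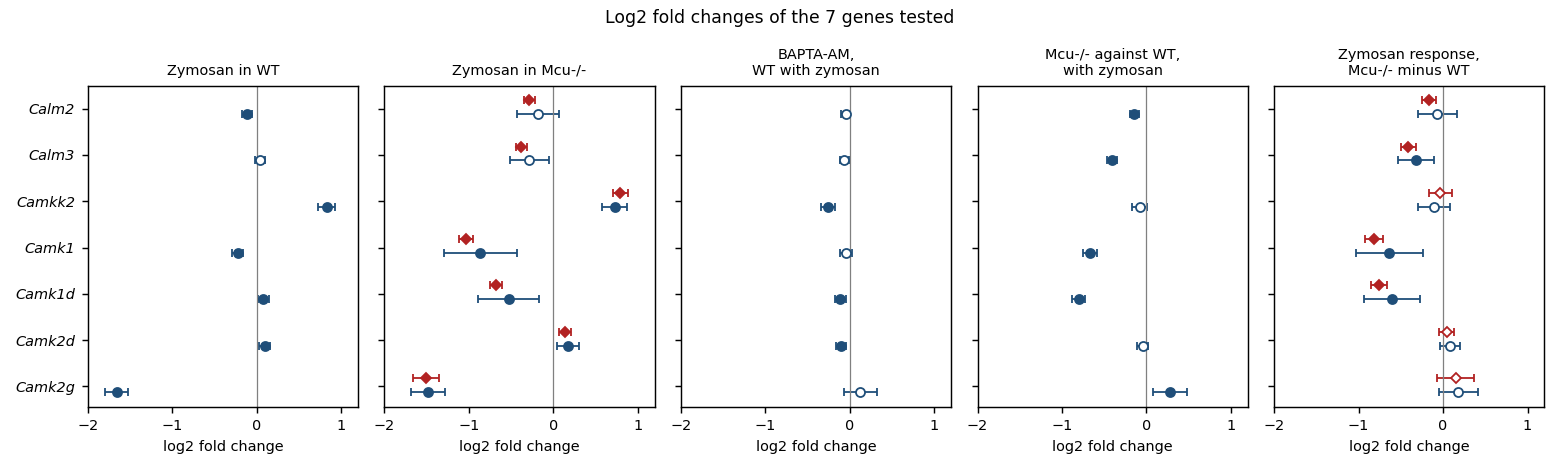
Log2 fold changes (x axis) of the 7 genes tested (rows) in 5 comparisons (panels), with bars of 2 SE from edgeR. Circles are fits with all libraries of the compared groups, diamonds the same fits without untreated Mcu-/- replicate 4, and filled symbols passed an adjusted p of 0.05; Camk1 and Camk1d lie below 0 in both panels that compare the genotypes.

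The calmodulin genes were the most highly expressed members per length of exon. In untreated WT macrophages *Calm2* (chr17:87433412-87446935, minus strand of mm10, protein coding) averaged 296 CPM per kb and *Calm3* (chr7:16915379-16924114, minus strand) 124 CPM per kb, while no kinase member exceeded 22.7 CPM per kb.

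*Calm2* had 444.5, 427, 420.1 and 448 CPM in the untreated WT libraries and 395, 401, 404, 404 and 404 CPM in the WT libraries with zymosan. With BAPTA-AM it had 399.5, 374, 386 and 390.1 CPM. Every WT library with zymosan lay below every untreated WT library, and the BAPTA-AM range overlapped the range with zymosan alone. In WT macrophages, *Calm2* fell by 0.11 on the log2 scale with zymosan (SE 0.03, edgeR adjusted p = 0.00061; exact two-sided permutation p = 0.00794, the smallest that 4 against 5 libraries can give). That call was lost in the fit of all 20 libraries (edgeR adjusted p = 0.148). BAPTA-AM made a difference of -0.05 (2 SE from -0.10 to 0.00, edgeR adjusted p = 0.133), which passed with DESeq2's size factors (edgeR adjusted p = 0.039).

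Untreated *Mcu*-/- macrophages had 439.7, 448, 442 and 321 CPM of *Calm2*, the last being replicate 4, and those with zymosan had 367, 360.4 and 364 CPM. Replicate 4 lay below all the other libraries, those with zymosan included. The 3 *Mcu*-/- libraries with zymosan all lay below the 5 WT libraries with zymosan, at 0.905 times the WT level (log2 fold change -0.14, SE 0.03, edgeR adjusted p = 5.39e-05). That call was lost in the fit of all 20 libraries (edgeR adjusted p = 0.107). The zymosan response did not pass the threshold in *Mcu*-/- macrophages (log2 fold change -0.18, SE 0.13, edgeR adjusted p = 0.237), and without replicate 4 it did (-0.29, SE 0.03, edgeR adjusted p = 2.05e-11). It also passed in the fit of all 20 libraries (edgeR adjusted p = 0.0436) and with library totals (edgeR adjusted p = 0.00345). The responses of the genotypes differed by -0.07 (2 SE from -0.30 to 0.16, edgeR adjusted p = 0.677), and without replicate 4 by -0.17 (SE 0.04, edgeR adjusted p = 0.00053).

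*Calm3* had 297, 300.4, 309 and 293 CPM in untreated WT macrophages and 314, 314, 308, 299.9 and 297 CPM with zymosan. With BAPTA-AM it had 295, 296, 286 and 292 CPM. These WT values sat close together, and the zymosan difference was 0.03 in log2 units (SE 0.03, edgeR adjusted p = 0.318). It passed with DESeq2's size factors (0.07, edgeR adjusted p = 0.0331) and turned negative with library totals (-0.46). The BAPTA-AM libraries all lay below the libraries with zymosan alone, yet the difference of -0.07 did not pass (SE 0.03, edgeR adjusted p = 0.0579). It passed without WT zymosan replicate 4 (edgeR adjusted p = 0.037), without WT zymosan replicate 5 (edgeR adjusted p = 0.039) or with DESeq2's size factors (edgeR adjusted p = 0.0167).

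The genotypes separated at *Calm3* with zymosan. It had 230, 229 and 235 CPM in *Mcu*-/- macrophages with zymosan, and 314, 296, 290.4 and 226 CPM in the untreated ones. Every *Mcu*-/- library with zymosan lay below every WT library, and replicate 4 of the untreated group lay just below them. *Calm3* in *Mcu*-/- macrophages with zymosan was at 0.754 times the WT level (log2 fold change -0.41, SE 0.03, edgeR adjusted p = 1.42e-11; exact permutation p = 0.0179, the smallest that 3 against 5 libraries can give).

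Zymosan moved *Calm3* in *Mcu*-/- macrophages by -0.29 (SE 0.12, edgeR adjusted p = 0.0642), which passed in the fit of all 20 libraries (edgeR adjusted p = 0.00167) and with library totals (edgeR adjusted p = 0.00122), and without replicate 4 by -0.38 (SE 0.03, edgeR adjusted p = 5.94e-14). The zymosan response of *Calm3* was lower in *Mcu*-/- than in WT macrophages by 0.32 on the log2 scale (edgeR, -0.32, SE 0.11, adjusted p = 0.0338), and by more without replicate 4 (-0.41, SE 0.05, edgeR adjusted p = 9.33e-10). With replicate 4 kept, the call was lost when any of 12 other libraries was left out: WT untreated 1, 2 or 4, WT zymosan 1, 2 or 3, *Mcu*-/- untreated 1, 2 or 3, or *Mcu*-/- zymosan 3, 4 or 5 (edgeR adjusted p = 0.0511 to 0.0717).

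*Camkk2* (chr5:122731170-122779409, minus strand) was the member that rose with zymosan in both genotypes and fell back part of the way with BAPTA-AM. It had 50.5, 51.7, 52.7 and 45.4 CPM in untreated WT macrophages and 86.2, 82.2, 88.5, 97.7 and 90.4 CPM with zymosan. With BAPTA-AM and zymosan it had 74.9, 72.2, 74.8 and 75.5 CPM. The 3 WT groups did not overlap, and the BAPTA-AM libraries lay between the others.

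In WT macrophages *Camkk2* rose by 77.2% with zymosan (log2 fold change 0.83, SE 0.05, edgeR adjusted p = 1.45e-15). BAPTA-AM lowered it to 0.836 times the level with zymosan alone (-0.26, SE 0.04, edgeR adjusted p = 4.85e-05), which left it 48.1% above untreated macrophages (0.57, SE 0.04, edgeR adjusted p = 3.36e-13). All 3 calls held in every alternative run, and with library totals the zymosan rise was 0.33 on the log2 scale.

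The *Mcu*-/- libraries had 48.3, 48.5, 48.9 and 57.4 CPM of *Camkk2* untreated and 82.4, 84.9 and 84.8 CPM with zymosan. Replicate 4 was the highest untreated library but remained well below the libraries with zymosan. The rise in *Mcu*-/- macrophages was 65.5% (log2 fold change 0.73, SE 0.08, edgeR adjusted p = 0.000192), and without replicate 4 it came to 0.79 in log2 units (SE 0.04, edgeR adjusted p = 1.04e-21). Against WT with zymosan the difference was -0.08 (interval of 2 SE from -0.17 to 0.01, edgeR adjusted p = 0.115), and it passed without WT zymosan replicate 2 (edgeR adjusted p = 0.0354) and with library totals (edgeR adjusted p = 0.0118). The responses of the genotypes differed by -0.10 (2 SE from -0.29 to 0.09, edgeR adjusted p = 0.428), and without replicate 4 by -0.03 (edgeR adjusted p = 0.687).

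*Camkk1*, the other gene of this kind, moved the opposite way. It averaged 19 ± 0.692 CPM in untreated WT macrophages (SD, n = 4) and 4.51 ± 0.595 CPM with zymosan (n = 5), a difference of -2.07 in log2 units (SE 0.09, edgeR adjusted p = 3.39e-19). With zymosan in *Mcu*-/- macrophages it was 0.294, 0.339 and 0.398 CPM, from 5 to 8 reads per library, and untreated replicate 4 had 1.31 CPM against 14.7 to 17.4 CPM in replicates 1 to 3. The ratio of *Camkk2* to *Camkk1* CPM was 2.64 ± 0.245 in untreated WT macrophages, 19.9 ± 1.88 in WT with zymosan and 248 ± 33.4 in *Mcu*-/- with zymosan.

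**Figure D3:**
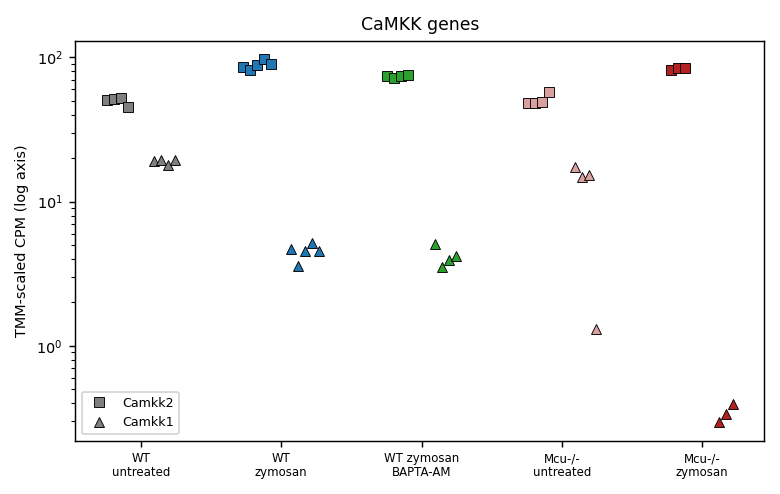
TMM-scaled CPM (y axis, log scale) of Camkk2 (squares) and Camkk1 (triangles) in the 5 groups (x axis), 1 symbol per library; Camkk1 is at 0.294 to 0.398 CPM in Mcu-/- macrophages with zymosan, where Camkk2 is at 82.4 to 84.9 CPM.

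The CaMKI genes *Camk1* (chr6:113334124-113343984, minus strand) and *Camk1d* (chr2:5293457-5714515, minus strand) encode the monomeric kinases that CaMKK2 phosphorylates. Some exon bases of *Camk1* overlap *Ogg1* on the opposite strand. *Ogg1* had 108 to 335 reads per library and *Camk1* 1218 to 3960, and whether counting used strand is not given in the sources used here.

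*Camk1* had 127, 126, 127 and 127 CPM in untreated WT macrophages and 108, 113, 107, 104 and 109.7 CPM with zymosan. With BAPTA-AM it had 111, 102, 107 and 100.1 CPM. Untreated libraries lay above all others of the WT genotype, while the ranges with and without BAPTA-AM overlapped. In WT, *Camk1* fell by 0.23 on the log2 scale with zymosan (SE 0.03, edgeR adjusted p = 6.39e-07), a call lost in the fit of all 20 libraries (edgeR adjusted p = 0.0993). BAPTA-AM made a difference of -0.05 (2 SE from -0.12 to 0.03, edgeR adjusted p = 0.379).

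*Camk1* in *Mcu*-/- macrophages had 139, 141, 142 and 76.9 CPM untreated and 71.7, 69.8 and 63.9 CPM with zymosan. Replicates 1 to 3 lay above every WT library, and replicate 4 lay just above the *Mcu*-/- libraries with zymosan. With zymosan, *Camk1* was at 0.630 times the WT level (log2 fold change -0.67, SE 0.04, edgeR adjusted p = 5.43e-13; exact permutation p = 0.0179). Untreated, the difference was -0.03 with replicate 4 (SE 0.18, edgeR adjusted p = 0.961) and 0.15 without it (SE 0.03, edgeR adjusted p = 0.00924).

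Within *Mcu*-/- macrophages, *Camk1* fell by 0.86 on the log2 scale with zymosan (SE 0.22, edgeR adjusted p = 0.0117), and without replicate 4 by 1.04 (-1.04, SE 0.04, edgeR adjusted p = 1.96e-27). The zymosan response was lower than in WT by 0.64 (-0.64, SE 0.20, edgeR adjusted p = 0.025), and without replicate 4 the difference was -0.81 (SE 0.05, edgeR adjusted p = 8.01e-16). With replicate 4 kept, this call was lost without *Mcu*-/- untreated 1, 2 or 3 or *Mcu*-/- zymosan 5 (edgeR adjusted p = 0.0527 to 0.0658).

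*Camk1d* had 165, 169, 173 and 167 CPM in untreated WT macrophages and 181, 181, 175, 182 and 169 CPM with zymosan. With BAPTA-AM it had 159, 168, 161 and 168 CPM. The untreated and zymosan ranges overlapped, and the BAPTA-AM libraries all lay below those with zymosan alone. The WT rise with zymosan was small (log2 fold change 0.08, SE 0.03, edgeR adjusted p = 0.0298), and with library totals it turned into a fall (-0.41, edgeR adjusted p = 4.54e-13). It was also lost in the fit of all 20 libraries (edgeR adjusted p = 0.498) and without WT untreated 1 or 4 or WT zymosan 1, 2 or 4 (edgeR adjusted p = 0.054 to 0.0882). BAPTA-AM put it at 0.924 times the level with zymosan alone (-0.11, SE 0.03, edgeR adjusted p = 0.0082), a call lost with library totals (edgeR adjusted p = 0.194) and in the fit of all 20 libraries (edgeR adjusted p = 0.544).

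The genotype difference was widest at *Camk1d*. It had 164, 162, 163 and 98.7 CPM in untreated *Mcu*-/- macrophages and 104, 102 and 100.2 CPM with zymosan. Replicate 4 again lay with the *Mcu*-/- libraries that had received zymosan, just below them, and apart from its group mates. With zymosan, *Camk1d* in *Mcu*-/- macrophages was at 0.573 times the WT level (log2 fold change -0.80, SE 0.04, edgeR adjusted p = 3.81e-16), which held in every alternative run. The untreated groups did not overlap (exact permutation p = 0.0286, the smallest that 4 against 4 libraries can give), yet the difference of -0.20 did not pass across all genes (SE 0.15, edgeR adjusted p = 0.752), and without replicate 4 it was -0.05 (SE 0.03, edgeR adjusted p = 0.572).

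Zymosan moved *Camk1d* in *Mcu*-/- macrophages by -0.53 on the log2 scale (edgeR, SE 0.18, adjusted p = 0.0375), and without replicate 4 by -0.68 (SE 0.04, edgeR adjusted p = 3.77e-22). With replicate 4 kept, this call was lost when any of the other 6 libraries was left out (*Mcu*-/- untreated 1, 2 or 3 or *Mcu*-/- zymosan 3, 4 or 5, edgeR adjusted p = 0.0882 to 0.105), and with DESeq2's size factors (edgeR adjusted p = 0.0531). The response differed from that of WT by -0.61 (SE 0.17, edgeR adjusted p = 0.0141), and by -0.76 without replicate 4 (SE 0.05, edgeR adjusted p = 3.27e-16). No library left out ended that call.

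**Figure D4:**
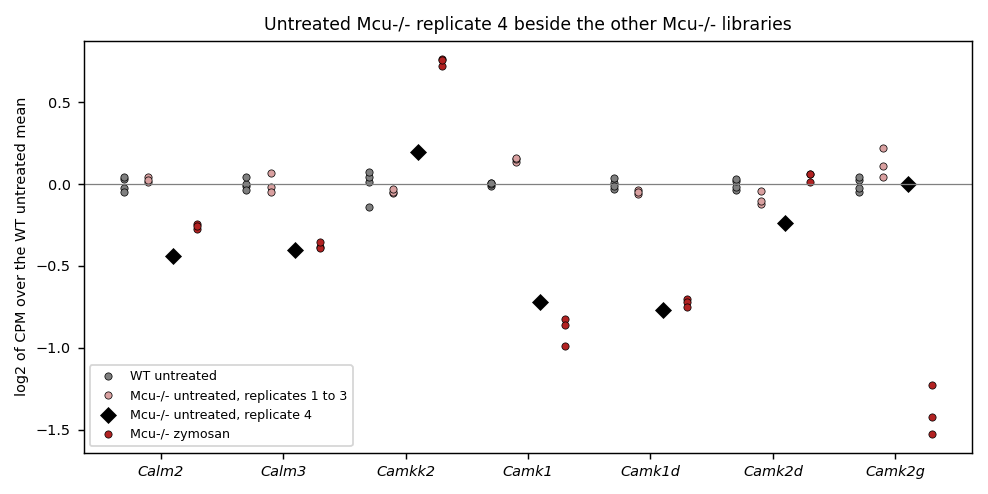
The log2 ratio of CPM to the mean of the untreated WT libraries (y axis) for the 7 genes tested (x axis). Points are libraries, and black diamonds are untreated Mcu-/- replicate 4, which lies near the Mcu-/- libraries with zymosan for Calm3, Camk1 and Camk1d and near the untreated libraries for Camk2g.

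Promoter sequences (GRCm38.p6, RefSeq gene starts) are shown for *Calm3*, *Camkk2*, *Camk1* and *Camk1d*, as the 250 bases before the start, read 5′ to 3′ on the gene's own strand. *Camk2g*, the member that fell most with zymosan, had no entry. Capitals mark the CRE core TGACG, part of the element bound by CREB, a target of CaM kinases.
Calm3 (chr7:16924033-16924282): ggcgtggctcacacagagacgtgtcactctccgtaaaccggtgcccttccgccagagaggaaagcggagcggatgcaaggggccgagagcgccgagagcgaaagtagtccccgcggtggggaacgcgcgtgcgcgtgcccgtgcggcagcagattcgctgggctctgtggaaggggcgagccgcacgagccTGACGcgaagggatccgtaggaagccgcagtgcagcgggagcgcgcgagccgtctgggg
Camkk2 (chr5:122779411-122779660): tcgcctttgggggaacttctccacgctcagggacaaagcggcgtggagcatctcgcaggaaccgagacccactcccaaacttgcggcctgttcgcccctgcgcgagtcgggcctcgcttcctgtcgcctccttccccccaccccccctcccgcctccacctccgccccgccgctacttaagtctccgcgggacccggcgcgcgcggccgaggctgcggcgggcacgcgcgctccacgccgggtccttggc
Camk1 (chr6:113343923-113344172): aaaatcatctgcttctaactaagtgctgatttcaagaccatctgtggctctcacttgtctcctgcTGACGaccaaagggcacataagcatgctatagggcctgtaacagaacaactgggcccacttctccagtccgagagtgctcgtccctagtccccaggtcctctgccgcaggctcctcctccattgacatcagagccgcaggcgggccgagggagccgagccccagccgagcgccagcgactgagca
Camk1d (chr2:5714763-5715012): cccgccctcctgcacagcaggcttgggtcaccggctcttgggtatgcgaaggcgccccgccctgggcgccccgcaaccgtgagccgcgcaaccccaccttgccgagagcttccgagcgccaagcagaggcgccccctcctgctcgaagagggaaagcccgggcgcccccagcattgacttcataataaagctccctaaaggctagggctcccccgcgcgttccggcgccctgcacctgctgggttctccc
Searched on both strands, TGACG occurred once in the *Calm3* and once in the *Camk1* window and not in those of *Camkk2* and *Camk1d*, beside 17.8% of 32851 mouse promoter windows of this length. The AP-1 letters TGANTCA and the NF-kB motif occurred in none of the 4, beside 6.75% and 4.65% of all windows. The windows of a second *Camk1d* start (chr2:5676047-5676296) and of *Camk2d* (chr3:126596701-126596950) are not shown and held none of these motifs. Both lie within their genes as GENCODE places them. The *Calm3* window overlaps the gene as GENCODE places it, which reaches 16924114, and its TGACG lies in that overlap. The *Camk1* window overlaps its gene as well, which reaches 113343984, and its TGACG lies outside that overlap. These matches describe letters, not binding.

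*Camk4* encodes CaMKIV, the nuclear member of the kinase family best known from neurons and T cells, and it was at the limit of detection. Its reads numbered 0, 2, 1 and 4 in untreated WT libraries and 1, 0, 3, 1 and 0 with zymosan. There were 0, 1, 1 and 1 reads with BAPTA-AM, 5, 2, 5 and 3 in untreated *Mcu*-/- macrophages and 0, 1 and 1 in *Mcu*-/- macrophages with zymosan. Since 0 reads in a library still allow about 3, no fold change is given, and the highest level in any library was 0.224 CPM. The intervals of such counts cover counting error only.

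The CaMKII genes *Camk2d* (chr3:126596302-126846326, plus strand) and *Camk2g* (chr14:20734875-20794088, minus strand) encode the delta and gamma subunits, which assemble into the same holoenzymes. *Camk2g* fell with zymosan in both genotypes while *Camk2d* moved little. *Camk2g* had 27.3, 26.0, 26.4 and 27.7 CPM in untreated WT macrophages and 7.80, 7.55, 9.18, 9.03 and 8.92 CPM with zymosan. It had 10.8, 8.29, 9.02 and 8.90 CPM with BAPTA-AM. Untreated libraries lay well above all stimulated ones, and the ranges with and without BAPTA-AM overlapped.

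In WT macrophages *Camk2g* fell by 68.3% with zymosan (log2 fold change -1.66, SE 0.07, edgeR adjusted p = 2.32e-19). BAPTA-AM with zymosan differed from zymosan alone by 0.12 (2 SE from -0.07 to 0.32, edgeR adjusted p = 0.368), and *Camk2g* remained 1.53 below untreated macrophages on the log2 scale (edgeR, -1.53, SE 0.07, adjusted p = 6.79e-19).

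*Camk2g* in *Mcu*-/- macrophages had 28.9, 31.3, 27.6 and 26.8 CPM untreated and 10.0, 9.32 and 11.5 CPM with zymosan. Replicate 4 lay with its group mates here. The fall was 1.48 on the log2 scale (edgeR, -1.48, SE 0.10, adjusted p = 2.5e-05), and without replicate 4 it was -1.51 (SE 0.08, edgeR adjusted p = 1.27e-22). With zymosan *Camk2g* was at 1.21 times the WT level (0.28, SE 0.10, edgeR adjusted p = 0.0164), a call lost without *Mcu*-/- zymosan 5 (0.18, edgeR adjusted p = 0.163) and with library totals (edgeR adjusted p = 0.0504). The responses differed by 0.18 (2 SE from -0.05 to 0.41, edgeR adjusted p = 0.247), and without replicate 4 by 0.15 (edgeR adjusted p = 0.237).

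*Camk2d* had 162, 163, 168 and 169 CPM in untreated WT macrophages and 180.3, 178, 177, 175 and 174 CPM with zymosan. With BAPTA-AM it had 159.7, 169, 167 and 160.7 CPM. The libraries with zymosan alone lay above both other WT groups, which overlapped each other. The rise with zymosan was 6.70% (log2 fold change 0.09, SE 0.03, edgeR adjusted p = 0.0076), and with library totals it turned into a fall (-0.40, edgeR adjusted p = 7.2e-13). BAPTA-AM put *Camk2d* at 0.928 times the level with zymosan alone (-0.11, SE 0.03, edgeR adjusted p = 0.00795), a call lost in the fit of all 20 libraries (edgeR adjusted p = 0.0644) and with library totals.

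*Camk2d* in *Mcu*-/- macrophages had 160.7, 152, 154 and 140.5 CPM untreated and 173, 173 and 167 CPM with zymosan. Untreated *Mcu*-/- libraries all lay below the untreated WT libraries (exact permutation p = 0.0286), and the difference of -0.12 did not pass across all genes (SE 0.05, edgeR adjusted p = 0.752), nor did that of -0.09 without replicate 4 (SE 0.04, edgeR adjusted p = 0.191). With zymosan the genotypes differed by -0.05 (2 SE from -0.11 to 0.02, edgeR adjusted p = 0.199), although the groups did not overlap, and the difference passed with library totals (edgeR adjusted p = 0.00773). The rise within *Mcu*-/- macrophages was 0.17 (SE 0.06, edgeR adjusted p = 0.0489), which turned into a fall with library totals (-0.35, edgeR adjusted p = 0.00468), and without replicate 4 it was 0.14 (SE 0.04, edgeR adjusted p = 0.000585). With replicate 4 kept, the call was lost without *Mcu*-/- untreated 2 or 3 or *Mcu*-/- zymosan 3, 4 or 5 (edgeR adjusted p = 0.0891 to 0.137), and with no filter beyond 1 count (edgeR adjusted p = 0.0874).

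The ratio of *Camk2d* to *Camk2g* CPM was 6.17 ± 0.193 in untreated WT macrophages (SD, n = 4), 20.96 ± 2.17 with zymosan (n = 5) and 17.9 ± 2.33 with BAPTA-AM and zymosan (n = 4). It was 5.31 ± 0.340 in untreated *Mcu*-/- macrophages (n = 4) and 16.8 ± 2.03 with zymosan (n = 3). *Camk2a*, a subunit gene outside the set, was low in all groups, at 7.94 ± 0.353 CPM in untreated WT macrophages, and was 2.54 ± 0.543 CPM in *Mcu*-/- against 8.75 ± 0.846 CPM in WT macrophages with zymosan (log2 fold change -1.78, SE 0.14, edgeR adjusted p = 3.47e-11). Untreated *Mcu*-/- replicates 1 to 3 had 8.69, 8.49 and 7.265 CPM of *Camk2a*, and replicate 4 had 2.70 CPM.

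Ordered by group mean, *Camkk2* ran from WT zymosan through *Mcu*-/- zymosan, BAPTA-AM and untreated *Mcu*-/- to untreated WT, with overlap between the first pair and between the last pair. *Camk2g* ran from the 2 untreated groups, which overlapped, to the 3 stimulated groups, which overlapped with their neighbours. *Calm2* and *Camk1* shared an order: untreated WT, untreated *Mcu*-/-, WT zymosan, BAPTA-AM and *Mcu*-/- zymosan, of which only the last did not overlap its neighbour. Without replicate 4 the untreated *Mcu*-/- group came first, at 443 CPM of *Calm2* against 435 in untreated WT and 140.4 CPM of *Camk1* against 127. For both genes untreated WT and its next neighbour, WT zymosan, then did not overlap. For *Camk1* the 2 untreated groups did not overlap either. The last pair of *Camkk2*, at 48.6 against 50.1 CPM, then also changed places. *Calm3* and *Camk1d* shared another, from WT zymosan through untreated WT, BAPTA-AM and untreated *Mcu*-/- to *Mcu*-/- zymosan, where every neighbouring pair overlapped. Without replicate 4 the untreated *Mcu*-/- group did not overlap *Mcu*-/- zymosan for either gene, and for *Calm3* it stood at 300.3 CPM beside 299.6 in untreated WT.

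Across the 20 libraries, which share treatments, depth and scaling, the log2 CPM of *Calm3* and *Camk1d* correlated at r = 0.981 and those of *Camkk2* and *Camk2g* at r = -0.943. Of 7656 genes averaging 10 CPM or more, the 3 most like *Camkk2* were *Mcl1* (r = 0.987), *Plekha2* (0.986) and *Ap3b1* (0.983). Those most like *Camk2g* were *Fam76b* (0.993), *Mphosph8* (0.990) and *Cerk* (0.990). *Camk1d* was followed most closely by *Flna* (0.994), *Siglece* (0.991) and *Ndrg1* (0.991), and *Calm3* by *Nxpe5* (0.985), *Ndrg1* (0.983) and *Flna* (0.983). The genes most like *Camk1* were *Cdc20* (0.984), *Plk1* (0.982) and *Rrm1* (0.982), and those most like *Calm2* were *Rin3* (0.956), *Arglu1* (0.955) and *Clasrp* (0.954). *Camk2d* had weaker partners, *Top1* (0.883), *Myadm* (0.873) and *Akap13* (0.866).

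Genes around the calmodulin pathway were read from 4 lists on the TMM scale, whose counts stand beside 37% of all genes higher and 41.1% lower with zymosan in WT. With zymosan in WT, 2 of 16 nuclear targets of CaM kinases rose and 13 fell, with a median log2 fold change of -0.36 beside -0.04 for all genes tested. The cAMP-response repressor *Crem* rose by 2.12 on the log2 scale (edgeR, SE 0.07, adjusted p = 4.92e-21), and the CREB coactivator gene *Crtc2* by 0.97. The class II histone deacetylase genes *Hdac7* (-2.49) and *Hdac5* (-1.74), which CaM kinases phosphorylate, and the coactivator *Crtc1* (-1.20) had the largest falls. Of 11 tested AMPK subunits and partners, none rose and 8 fell, with *Prkag2* (-0.74), *Prkab1* (-0.60) and the catalytic subunit *Prkaa1* (-0.59) changing most.

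Calmodulin-binding proteins were split with zymosan in WT, 12 of 28 tested rising and 11 falling, shares near those of all genes. *Sphk1*, a sphingosine kinase, rose by 5.03 on the log2 scale, from 0.358 to 12.04 CPM, *Marcksl1*, a membrane protein that holds calmodulin, by 3.44, from a mean of 199 to 2156 CPM, and the inositol trisphosphate kinase *Itpkc* by 3.08. The calmodulin-binding transcription activator *Camta2* (-1.38), *Add3* (-0.88) and *Camsap1* (-0.72) fell most. Of 12 tested other family genes, 2 rose, the CaM kinase phosphatase gene *Ppm1f* (0.37) and *Cask* (0.24), and 4 fell, among them *Camkk1* (-2.07), the death-associated kinase *Dapk1* (-1.48) and *Eef2k* (-0.57). With library totals *Ppm1f* and *Cask* were lower instead (-0.13 and -0.25), and the other genes named here kept their direction.

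BAPTA-AM lowered the calmodulin-binding genes that zymosan had raised most: *Itpkc* was lower by 0.76 (-0.76, SE 0.07, edgeR adjusted p = 4e-09), *Sphk1* by 0.64 (-0.64, SE 0.10, edgeR adjusted p = 1.39e-05) and *Marcksl1* by 0.36 (-0.36, SE 0.02, edgeR adjusted p = 1.11e-11). In all, 6 of the 28 calmodulin-binding genes were higher with BAPTA-AM, led by *Camsap1* (0.32), *Pde1b* (0.27) and *Itpkb* (0.22), and 10 were lower (with library totals 10 were higher and 8 lower), beside 14% and 15.9% of all genes. Among the 16 nuclear targets 4 were higher, with *Srf* (0.32), *Hdac5* (0.28) and *Mef2d* (0.19) among them, and 2 were lower, *Ep300* (-0.31) and *Mef2a* (-0.13), the latter call being lost with library totals (-0.07, edgeR adjusted p = 0.2). Of the AMPK list 2 of 11 were higher and 1, *Prkag1* (-0.26), lower. Of the other family genes *Cask* was higher (0.25) and *Ppm1f* lower (-0.24).

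In *Mcu*-/- against WT macrophages with zymosan, 15 of 28 calmodulin-binding genes were higher and 9 lower, beside 36% and 33.2% of all genes. The plasma membrane Ca2+ pump gene *Atp2b4* (1.94), *Camsap1* (1.05) and *Sptan1* (0.85) were the highest, and *Iqgap3* (-3.42), the phosphodiesterase *Pde1b* (-2.05) and *Sphk1* (-1.66) the lowest. Of the other family genes 4 of 12 were higher and 4 lower, with *Dapk1* at 1.98 (SE 0.05, edgeR adjusted p = 8.06e-22) and *Phkg2* at -0.55. Of the nuclear targets 7 of 16 were higher, led by *Hdac9* (2.44), *Mef2c* (0.69) and *Hdac5* (0.56), and 3 were lower, *Srf* (-0.29), *Crtc2* (-0.24) and *Crem* (-0.21). Of the AMPK list only *Prkaa1* was higher (0.45), and 7 of 11 were lower, with *Acaca* at -0.57, *Prkag1* at -0.47 and the AMPK-activating kinase *Stk11* at -0.41.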

How the data were processed

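Libraries of mouse BMDMs were sequenced as paired-end reads. The authors removed adaptors with cutadapt, mapped reads to mm10 with STAR and counted them per gene with HTSeq, and deposited the whole-number counts without normalization (versions and strand setting are not given in the sources used here). The submitters' processing notes also name FastQC, MultiQC, DESeq and DESeq2. Columns were matched to samples by name. The 3 *Mcu*-/- zymosan columns are numbered 3, 4 and 5 while the labels count 1 to 3, so these libraries are assigned by group and named by column. With total counts of 14420402 to 23954552 per library, 1 TMM-scaled CPM is 15.7 to 28.1 reads.

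Counts were filtered with filterByExpr and scaled by TMM over all 20 libraries, then tested by edgeR 4.0.16 (quasi-likelihood, R 4.3.3) on the groups compared, without covariates. Intervals are 2 SE. For each member, log2(CPM + 0.5) was set against an exact two-sided permutation test. Coordinates and lengths are from GENCODE M21, promoter sequences from RefSeq, where 5 members had an entry. The alternatives were DESeq2 size factors, library totals, no filter beyond 1 count, at least 10 counts in every library, DESeq2 1.42.0 (Wald), all 20 libraries in 1 fit, a replicate block and each library left out.

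The members, lists, tests and alternatives were chosen with earlier results of these data known. From each list, up to 3 called genes per direction with the largest fold change and at least 10 CPM in the higher group were named, for 3 comparisons. The fits were tested on simulated data. Replicate numbers were not taken as pairs, and the labels do not say whether libraries of the same number belong together. A gene of the lists is not reported here.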

Additional observations from a re-analysis of the deposited data

Results flagged for a closer look

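In 4 of 28 gene-by-group sets of 4 or 5 libraries, 1 library lay far from the rest, where chance alone flags about 1 in 20, and in each it was untreated *Mcu*-/- replicate 4. It had 321 CPM of *Calm2* against 440 to 448 CPM in replicates 1 to 3. For *Camkk2* it had 57.4 CPM against 48.3 to 48.9 CPM. For *Camk1* the values were 76.9 CPM against 139 to 142 CPM, and for *Camk1d* 98.7 CPM against 162 to 164 CPM. In the same library the 6 stromal markers summed to 20.3 CPM, against 1.75 to 2.67 CPM in replicates 1 to 3 and 30.3 to 39.3 CPM in *Mcu*-/- macrophages with zymosan.

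The zymosan response differed between the genotypes for 3 members, beside 30.7% of all genes. With each library left out the count ran from 1 to 4, and calls over all genes ran from 2730 to 7051. The count was 4 without untreated *Mcu*-/- replicate 4, beside 60.2% of all genes. The *Mcu*-/- response minus the WT response was -0.32 on the log2 scale for *Calm3*, -0.64 for *Camk1* and -0.61 for *Camk1d* (edgeR adjusted p = 0.0338, 0.025 and 0.0141). For each of them all 5 WT libraries with zymosan lay above the 3 *Mcu*-/- libraries with zymosan. These libraries enter the call that picked the genes, so their separation is no further support. Between the genotypes with zymosan 69.2% of all genes were called.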

How the results depend on the processing

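Directions of members called with or without an alternative held in all of them but these: with library totals, zymosan in WT gave -0.46 for *Calm3*, -0.41 for *Camk1d* and -0.40 for *Camk2d*, and zymosan in *Mcu*-/- gave -0.35 for *Camk2d*; without untreated *Mcu*-/- replicate 4, *Camk1* in untreated *Mcu*-/- against WT was 0.15 (from -0.093 to 0.15 with each library left out). The cause was not tested, beyond the scaling shift of all genes. The number of members called moved from 6 to 3 (zymosan in WT), from 3 to 1 (BAPTA-AM against zymosan) and from 4 to 2 (BAPTA-AM against untreated) in the fit of all 20 libraries. With library totals it moved to 1 and 7 in the last 2, and with DESeq2's size factors to 5 for BAPTA-AM against zymosan. With each library left out, the counts ran from 5 to 6, 3 to 4, 4 to 4, 4 to 6 (*Mcu*-/- against WT with zymosan), 0 to 1 (untreated genotypes), 3 to 7 (zymosan in *Mcu*-/-) and 1 to 4 (difference of responses). Over all genes those runs gave 8898 to 9062, 3031 to 3477, 8592 to 8693, 7529 to 8103, 0 to 430, 5531 to 9611 and 2730 to 7051 calls, in the same order. Calls over all genes between untreated genotypes were 0 with the block and 0 with at least 10 counts in every library. They were 23 by DESeq2 and 41 in the fit of all 20 libraries, against 4 as reported. BAPTA-AM calls fell from 3501 to 1494 in the fit of all 20 libraries. Library totals gave 20.4% higher calls in place of 48.3% for BAPTA-AM against untreated, 16.6% in place of 45.5% for zymosan in *Mcu*-/- and 40% in place of 25% between untreated genotypes.

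With the replicate number as a block, the member counts were 6, 3, 4 and 0 in the 4 comparisons that allow it, and no member's call changed. Same-numbered libraries deviated together at r = -0.274 to 0.141, so the numbers were not taken as pairs. No block was possible with *Mcu*-/- zymosan libraries, whose columns carry other numbers than the labels. At 15.7 to 28.1 reads per TMM-scaled CPM, depth limits *Camk4* in all groups and *Camkk1* in *Mcu*-/- macrophages with zymosan.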
